A study of Mus musculus with 38 samples.

Results

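The comparison described here is that of mouse T helper 17 (Th17) cells cultured for 2 days with dexamethasone (Dex) against the same kind of cells cultured without it. It comprised 8 of the 38 libraries of the series, 4 libraries of wild-type (WT) cells with Dex (WT Dex 1 to 4) and 4 without (WT Ctrl 1 to 4), and was chosen by the group names in the labels. WT cells were C57/B6. Naive T cells, from spleen and draining lymph node, were differentiated in culture into cells the labels call Th17Inf, and 2000 live Th17 cells were sorted for each library. The same table held 8 libraries of IL-23R knockout (KO) cells, 4 with Dex and 4 without, handled in the same way. IL-23R is the receptor for interleukin-23, and the KO libraries shared the fit and were used to test where the WT response differed. A further 8 libraries were made from 2D2 T cells, which had been transferred into recipients and were taken from the central nervous system (CNS) of mice with experimental autoimmune encephalomyelitis at peak disease. These were 4 with the glucocorticoid receptor (GR WT) and 4 with its gene conditionally deleted (GR cKO), the driver of the deletion being not given in the sources used here. The Dex dose was also not given. Whether each replicate was its own mouse or culture is not in the labels, so a p value here speaks only to the spread among libraries, which may be technical.

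Dex is a synthetic glucocorticoid. It binds the glucocorticoid receptor, encoded by Nr3c1, which is held in the cytoplasm by heat shock chaperones, moves to the nucleus on binding and acts on transcription both by contacting DNA and by interfering with factors such as AP-1 and NF-kB. In T cells glucocorticoids are known for lowering the output of many cytokines and for raising a set of feedback genes that damp signalling. Th17 cells are CD4 T cells known for the cytokines IL-17A and IL-17F. They can be protective or, after exposure to IL-23, drive autoimmune inflammation.

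Expression was measured by a modified SMART-Seq2 protocol and is given as scaled CPM, the counts of a gene relative to the total of its library in the usual CPM unit, after TMM scaling (a correction for unequal library composition). Values are means ± SD over n = 4 libraries, and fold changes are from the fitted model on the log2 scale with their standard error (SE). The 8 libraries held 4263117 to 4732419 counts, and 3 counts, taken as the limit that a count of 0 allows, corresponded to 0.588 to 0.679 scaled CPM. All pairs of libraries within a group differed by more than counting noise. The share of counts on repeats and ribosomal RNA was 16.9 to 19.8% without Dex and 22.0 to 26.2% with Dex, with no overlap, and its part in the changes below was not tested beyond removing those features. Markers of T cells were abundant: Cd3e stood at 227 ± 16.4 without Dex and 264 ± 29.7 with Dex, and Cd4 at 193 ± 17.1 and 208 ± 6.96. Of 17 macrophage and monocyte markers, 10 were at 0 in all 8 libraries, Lyz2, Csf1r and Adgre1 among them, and the sum of the list was 4.51 to 5.79 scaled CPM without and 4.84 to 7.25 with Dex. The dendritic cell gene Itgax and the neutrophil genes S100a8 and S100a9 were also at 0 in each. The summed B cell list was 72.5 to 90.4 without and 86.7 to 93.2 with Dex. The CD8 and NK cell list summed to 11.5 to 18.4 without and 18.3 to 20.5 with Dex. The fibroblast and endothelial list summed to 14.9 to 18.4 without and 16.8 to 23.6 with Dex. The summed dendritic cell list was 362 to 455 without and 462 to 533 with Dex. Of its 6 tested genes Batf3, which activated T cells also express, was called higher and H2-Aa lower, and Itgax, Clec9a and Cd209a were at 0, and the part of such cells in the results was not tested.

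Dex changed the expression of 874 of 10813 genes tested (8.08%, edgeR quasi-likelihood test, Benjamini-Hochberg adjusted p under 0.05). Of these, 420 were higher (3.88%) and 454 lower (4.2%). The changes were mostly moderate, with a median of 1.62-fold among the genes that rose and 1.45-fold among those that fell, while 17 genes rose and 24 fell by at least 4-fold. Scaled CPM of the groups did not overlap for 1737 genes (16.1%), and 805 of these were also called. The median log2 fold change over all genes tested was 0.01. In bulk RNA, fewer cells of a kind and less RNA per cell cannot be told apart. The share called rose with the level of the gene: 4.03% of 4419 genes under 10 scaled CPM, 9.15% of 5335 genes from 10 to 100 and 19.64% of 1059 genes above that. The median SE fell over the same classes from 0.28 to 0.14 and 0.08, so the smallest change that could be called depended on the level. In the highest class 139 genes fell and 69 rose, so the shares of all genes used below are low for lists of abundant genes. Without WT Ctrl replicate 2 the count was 531 and without WT Dex replicate 3 it was 571, and 442 of the 874 genes were called whichever of the 8 libraries was left out. With the repeat features removed the fit called 877 genes, 868 of them shared.

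**Figure D1:**
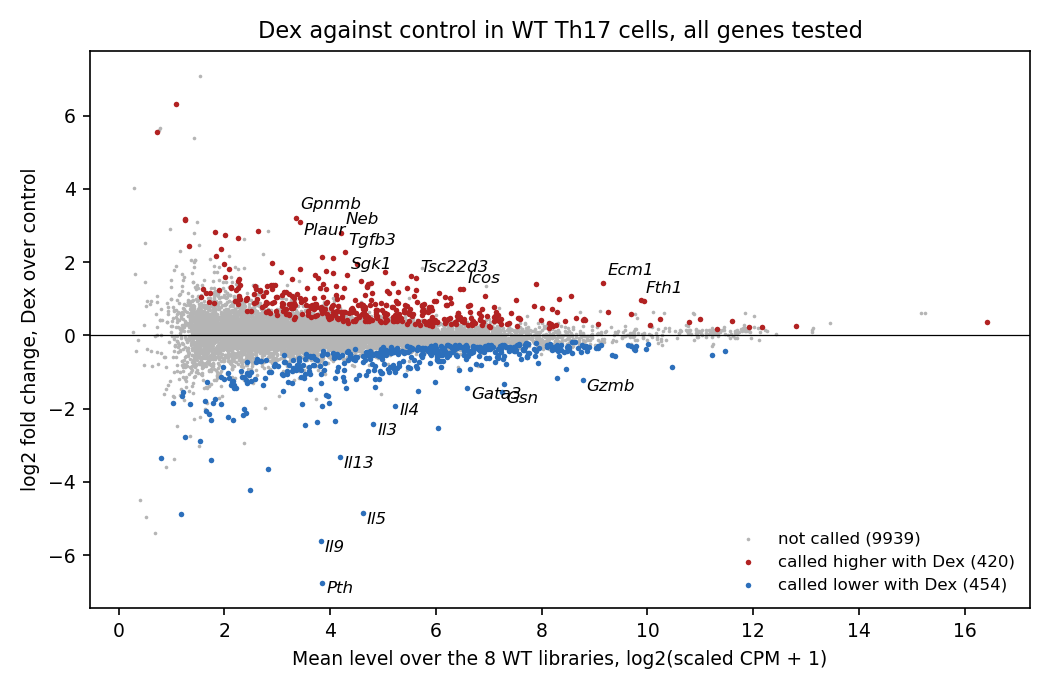
Fitted log2 fold change with Dex in WT cells (vertical axis) against the mean level over the 8 WT libraries, log2(scaled CPM + 1) (horizontal axis), with 1 point per gene tested. The 420 genes called higher are red and the 454 called lower are blue, the largest falls are those of cytokine and hormone genes at moderate levels, and called changes reach smaller sizes to the right.

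Among the genes known to be direct or early targets of glucocorticoids, 8 of 23 tested rose and 1 fell, against 3.88% and 4.2% of all genes, and the median of the list was 0.44 on the log2 scale. The usual checks of Dex action rose in every Dex library. Tsc22d3, which encodes the leucine zipper protein GILZ, was 23.4, 20.2, 28.5 and 25.3 scaled CPM in WT Ctrl 1 to 4 and 59.8, 53.6, 89.5 and 87.4 in WT Dex 1 to 4. The immunophilin gene Fkbp5 was 4.64, 4.11, 5.54 and 3.43 and 8.21, 7.72, 11.1 and 10.1, and Sgk1, a kinase downstream of PI3 kinase, was 12.5, 7.44, 7.52 and 9.01 and 32.4, 25.6, 30.1 and 26.9. None of the 3 overlapped between the groups, and Tsc22d3 was highest in Dex libraries 3 and 4. Their log2 fold changes were 1.57 ± 0.20, 1.06 ± 0.17 and 1.65 ± 0.18 SE. Txnip, a thioredoxin-binding arrestin that restrains glucose uptake, stood at 26.6, 24.9, 23.6 and 25.1 in the controls and at 58.5, 47.2, 70.7 and 67.4 with Dex. Every Dex library lay above every control, and the fold change was 2.43 (log2 1.28 ± 0.15 SE, adjusted p = 3.99e-05). Pik3ip1, an inhibitor of PI3 kinase, was 14.1, 14.1, 18.0 and 19.5 without Dex and 35.1, 24.9, 46.4 and 40.5 with Dex, again without overlap, and rose 2.23-fold (adjusted p = 0.00217). Ifngr1, a chain of the interferon gamma receptor, rose from 37.4 ± 7.20 to 66.9 ± 14.8, a 1.79-fold change (adjusted p = 0.00468).

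Other classical targets did not pass the test. Per1, a clock gene with a well studied glucocorticoid element, was 27.9, 29.0, 38.2 and 30.0 scaled CPM without Dex and 26.1, 28.2, 36.9 and 33.7 with Dex, so the groups overlapped throughout, and its log2 fold change was -0.004 ± 0.17 SE (adjusted p = 0.993). Dusp1, the MAP kinase phosphatase, was 18.4 ± 3.43 without and 25.6 ± 3.55 with Dex (adjusted p = 0.0811), with a call gained without WT Ctrl replicate 3 or WT Dex replicate 2, and Il7r, the IL-7 receptor chain, was 34.7 ± 4.41 and 48.8 ± 8.49 (adjusted p = 0.0847). The receptor itself, Nr3c1, was 2.42, 4.11, 2.77 and 2.14 without Dex and 3.16, 3.53, 3.85 and 3.08 with Dex (log2 0.24 ± 0.22 SE, adjusted p = 0.649). The 1 member that went the other way was Gadd45b, a stress-induced signalling gene. It stood at 24.2, 21.2, 26.3 and 16.9 in the controls and 15.6, 7.5, 11.1 and 5.06 with Dex, every Dex library below every control, a 2.25-fold fall (adjusted p = 0.00614). Of 12 clock genes tested none rose, and Bhlhe40 alone fell, from 298 ± 15.9 to 250.0 ± 13.3 (adjusted p = 0.0144), and it missed the threshold without WT Ctrl replicate 1 or WT Dex replicate 4. The share of clock genes called, 8.33%, is close to the 8.08% of all genes and is not a result about the list. Metallothioneins, zinc-binding proteins that glucocorticoids are known to raise, gave smaller changes. Of 13 genes of metallothioneins and zinc transporters 4 rose and 1 fell, against 3.88% and 4.2% of all genes. Only 2 rose when 1 of WT Ctrl replicates 1 and 2 or WT Dex replicates 2 and 4 was left out. The gene that fell was Slc39a1, and its call was lost without any 1 of WT Ctrl replicates 1 to 3 or WT Dex replicates 1 to 3. Mt1 rose from 1019 ± 98.7 to 1384 ± 87.7, 1.36-fold (adjusted p = 0.00279), and the zinc importer Slc39a8 rose from 6.94 ± 0.575 to 13 ± 2.46 (adjusted p = 0.00268).

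The genes that rose most, among those at 10 or more scaled CPM in the higher group and with no overlap between groups, came from many functions. Gpnmb, a glycoprotein of lysosomes and the cell surface better known from macrophages, stood at 1.41, 0.980, 2.18 and 2.57 scaled CPM in the 4 controls and 13.7, 21.8, 16.1 and 14.7 with Dex. Plaur, the urokinase receptor, stood at 2.22, 2.94, 2.18 and 0.643 and 16.4, 10.8, 24.2 and 18.5, and Neb, the giant thin-filament protein nebulin of skeletal muscle, at 4.44, 3.92, 4.55 and 4.72 and 26.5, 28.7, 31.7 and 35.4. For all 3 the groups were far apart, with the lowest Dex library at least 3 times the highest control. Neb had the smallest adjusted p of any gene (5.91e-09), and its libraries differed little within each group. Tgfb3, which encodes an isoform of TGF-beta, was 6.06, 4.90, 7.13 and 6.86 in the controls and 23.8, 20.5, 37.4 and 39.8 with Dex, and in Dex libraries 3 and 4 it was higher than in 1 and 2.

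The same unevenness among the Dex libraries was seen for several genes with large rises. Jaml, an adhesion molecule of leukocytes, was 3.43, 7.44, 5.54 and 6.86 without Dex and 16.8, 14.8, 37.6 and 32.4 with Dex. Isg20, an interferon-induced exonuclease, was 12.1, 6.66, 9.11 and 7.94 and 26.9, 26.2, 40.8 and 44.7, and Trib2, a tribbles pseudokinase, was 4.44, 3.92, 4.75 and 4.29 and 10.1, 8.60, 23.3 and 18.9. In each of these the Dex libraries 3 and 4 were the upper pair, and no Dex library came down to the controls. Flt3l, the ligand of the FLT3 receptor, varied widely with Dex, with 24.6, 22.1, 26.5 and 15.4 in the controls and 79.1, 29.3, 122 and 41.4 with Dex (log2 1.61 ± 0.33 SE, adjusted p = 0.00501).

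Further genes were among the 15 largest rises under the same limits, and some genes below that level, such as Il23a and Nt5e, rose by more. Sv2c, a synaptic vesicle glycoprotein, rose from 4.99 ± 1.79 to 21.9 ± 4.31, 4.38-fold (adjusted p = 3.16e-05). Ramp3, which partners receptors of the calcitonin family, rose from 6.44 ± 0.644 to 21.9 ± 4.08, 3.39-fold (adjusted p = 9.75e-06), and Arap2, a regulator of small GTPases, rose from 7.23 ± 3.56 to 23.8 ± 5.39, 3.26-fold. Thada rose from 5.82 ± 0.921 to 18.4 ± 2.94, 3.14-fold (adjusted p = 7.46e-06), and Serpinb5, the serpin known as maspin, from 2.58 ± 0.601 to 10.3 ± 6.08, 3.96-fold, with a wide spread among the Dex libraries. Smaller rises marked some abundant genes. Ecm1, a secreted matrix glycoprotein, was 291, 256, 311 and 380.1 in the controls and 846, 736, 847 and 924 with Dex, 2.71-fold (adjusted p = 0.00138). Fth1, the ferritin heavy chain that stores iron, was 606, 656, 635 and 669.6 and 1339, 1338, 1150.5 and 1149, 1.94-fold (adjusted p = 1.51e-06). Ahcy, which hydrolyses S-adenosylhomocysteine, rose 1.66-fold, the fatty acid elongase Elovl6 1.91-fold, the surface protein Ly6e 1.5-fold and the immunophilin Fkbp1a 1.55-fold, with adjusted p between 5.88e-06 and 1.07e-05.

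**Figure D2:**
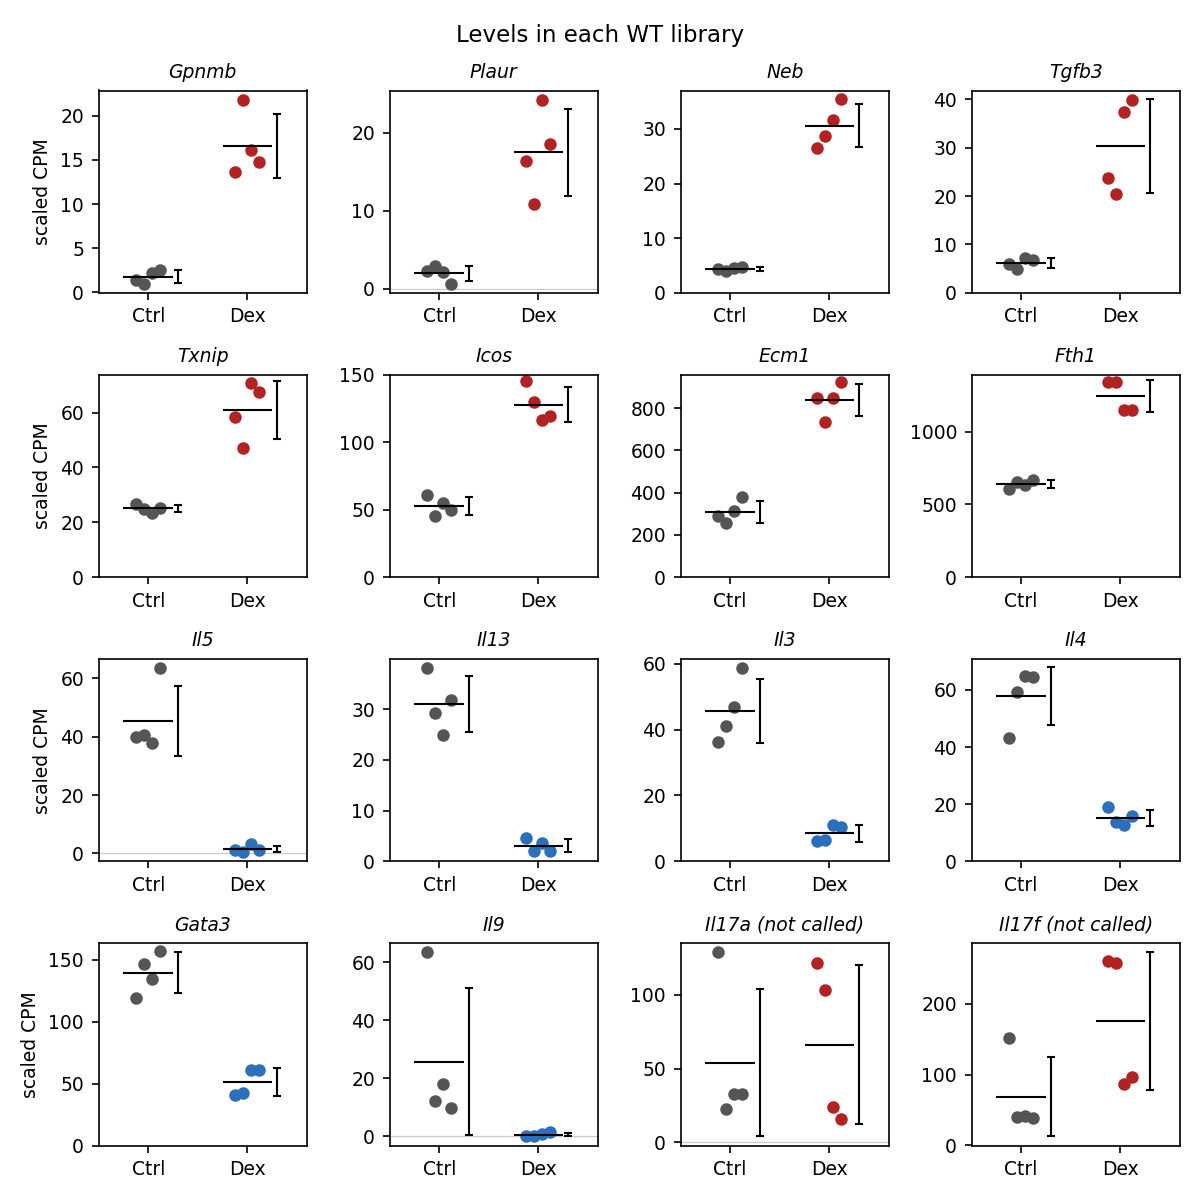
Scaled CPM of 16 genes in each of the 4 control (Ctrl) and 4 Dex libraries of WT cells; points are libraries, horizontal lines are means and bars are ± SD. The first 8 genes are higher with Dex in every library, the next 6 are lower in every library, and Il17a and Il17f overlap, with WT Ctrl 1 and WT Dex 1 and 2 high.

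Type 2 cytokine genes were among the largest falls. T helper 2 (Th2) cells make IL-4, IL-5 and IL-13 under the control of the transcription factor GATA3, and these genes were transcribed at moderate levels in the control cultures. Of 11 tested Th2 cytokines and regulators 7 fell and none rose (median log2 fold change -1.13), against 4.2% of all genes that fell. Il5 was 39.8, 40.7, 38.0 and 63.5 scaled CPM in the controls and 1.26, 0.661, 3.17 and 1.10 with Dex, and Il13 was 38.2, 29.4, 24.9 and 32.0 and 4.63, 1.98, 3.62 and 1.98. Some Dex values of Il5 were close to the 3-count limit, so that gene was nearly silent with Dex, while Il13 was low but above the limit in every Dex library. The fitted falls were 29.1-fold for Il5 and 10.1-fold for Il13. Il4 was 43.2, 59.4, 64.7 and 64.3 and 18.9, 13.7, 12.7 and 15.8, a 3.78-fold fall (adjusted p = 3.77e-05), so that transcript remained in every Dex library. Gata3 was 119, 147, 135 and 158 and 40.8, 42.3, 61.4 and 60.8, a 2.72-fold fall (adjusted p = 6.17e-06), and the chemokine receptor gene Ccr8 fell from 147 ± 14.2 to 83.1 ± 22.8 (adjusted p = 0.00279).

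The genes that fell include 4 neighbours, all cytokine genes except Rad50. Il4, Il13, Rad50 and Il5 lie side by side on mouse chromosome 11 (mm10), and Il3 lies further along with Csf2. Between Kif3a and Acsl6, from 53567379 to 54364756 on that chromosome (797 kb), 30 genes were annotated and 13 tested, of which 5 fell and none rose, against 4.2% and 3.88% of all genes. The region was drawn around cytokine genes that the cytokine lists also count, so its count is not separate evidence. Il4 (chromosome 11, 53602982 to 53618669), Il13 (chromosome 11, 53631324 to 53634702), Rad50 (chromosome 11, 53649519 to 53707319) and Il5 (chromosome 11, 53720794 to 53725106) were 4 of the 5, and Il3 (chromosome 11, 54265303 to 54267277) was the other. Rad50 encodes a subunit of the DNA break repair complex, and its introns hold the known control region of the Th2 locus. It stood at 38.2, 37.2, 41.0 and 41.8 in the controls and 18.3, 17.9, 19.9 and 24.7 with Dex, without overlap, a 1.96-fold fall (adjusted p = 0.00185). Il3, a haematopoietic growth factor, was 36.1, 41.1, 46.9 and 58.8 and 6.10, 6.39, 11.1 and 10.3, 5.39-fold lower (adjusted p = 6.04e-05).

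Genes between and beside them did not pass the test. The predicted gene Gm12216 had a log2 fold change of -1.69 ± 0.79 SE (adjusted p = 0.217) at a low level, 1.64 ± 1.36 scaled CPM without and 0.495 ± 0.417 with Dex, and Acsl6 one of -0.66 ± 0.35 (adjusted p = 0.284). Kif3a had a log2 fold change of -0.27 ± 0.15 SE, Slc22a21 of 0.29 ± 0.37, P4ha2 of 0.16 ± 0.12 and Irf1 of -0.35 ± 0.12 (adjusted p = 0.0825), and Irf1 passed the threshold without WT Ctrl replicate 1. The predicted gene Gm12214, antisense to Il5 and within it, was 4.15 ± 2.02 without and 1.27 ± 0.532 with Dex, and without stranded counting its reads cannot be told apart from those of Il5. Csf2, the gene of GM-CSF that marks pathogenic Th17 cells, had 0, 0, 2 and 2 counts in the controls and 0 in each Dex library, too few to test, so a change in it was not detectable at this depth.

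**Figure D3:**
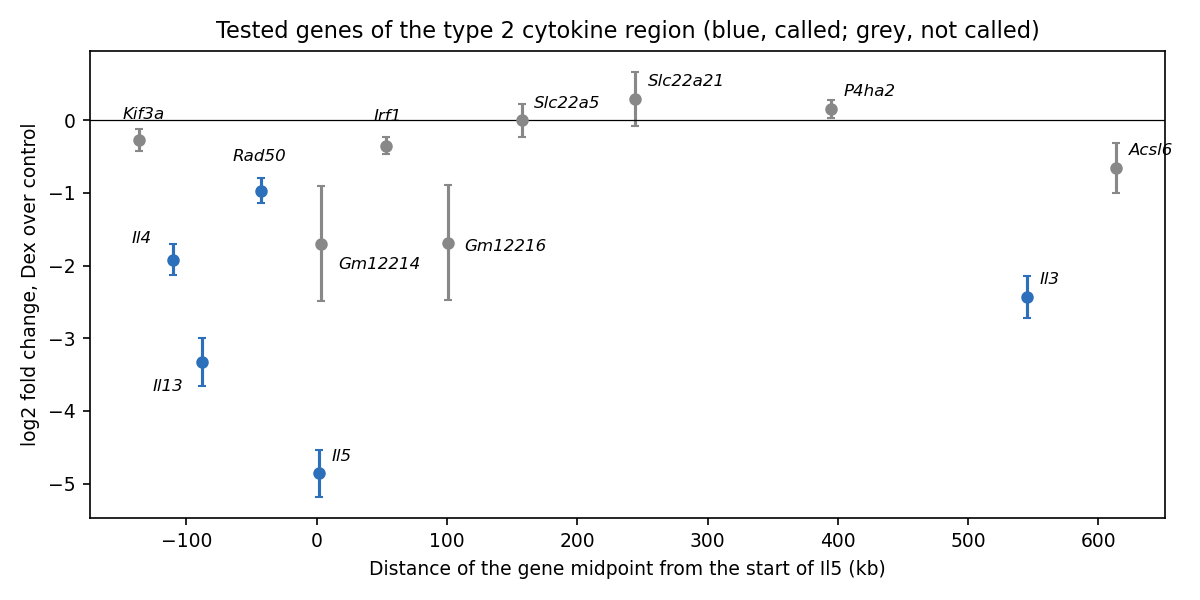
Fitted log2 fold change with Dex (vertical axis, bars ± SE) of the 13 tested genes between Kif3a and Acsl6 against the distance of each gene's midpoint from the start of Il5 in kb (horizontal axis). The 5 called genes (blue) include the 4 cytokine genes and Rad50 and all lie below 0, with grey uncalled genes between Il5 and Il3.

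The bases before their starts are shown for the 2 that fell most, beside those of Plaur and Sgk1, which rose. The sequences are RefSeq's (GRCm38.p6), 250 bases ending just before the start, 5′ to 3′ on the strand of the gene. Capitals in the first 2 mark each match to the core bound by NFAT factors, TTTCC or its complement GGAAA. In Plaur they mark the match to the AP-1 motif TGANTCA, and in Sgk1 that to the glucocorticoid receptor hexamer AGAACA or its complement TGTTCT.
Il5 (chr11:53720544-53720793, plus strand): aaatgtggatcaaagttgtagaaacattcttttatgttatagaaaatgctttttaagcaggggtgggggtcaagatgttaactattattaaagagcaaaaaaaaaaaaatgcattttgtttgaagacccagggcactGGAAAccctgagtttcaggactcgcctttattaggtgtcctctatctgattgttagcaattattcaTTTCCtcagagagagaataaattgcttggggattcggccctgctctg
Il13 (chr11:53634703-53634952, minus strand): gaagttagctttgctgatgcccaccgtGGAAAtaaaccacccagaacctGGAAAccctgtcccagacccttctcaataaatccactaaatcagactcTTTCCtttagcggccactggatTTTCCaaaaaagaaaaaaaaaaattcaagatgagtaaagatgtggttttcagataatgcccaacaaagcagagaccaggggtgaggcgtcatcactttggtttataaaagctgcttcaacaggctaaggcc
Plaur (chr7:24462233-24462482, plus strand): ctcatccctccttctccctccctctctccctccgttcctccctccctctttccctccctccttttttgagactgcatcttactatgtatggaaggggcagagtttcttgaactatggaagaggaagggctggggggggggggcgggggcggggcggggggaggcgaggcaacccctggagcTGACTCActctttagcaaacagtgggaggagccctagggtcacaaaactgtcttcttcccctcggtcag
Sgk1 (chr10:21881934-21882183, plus strand): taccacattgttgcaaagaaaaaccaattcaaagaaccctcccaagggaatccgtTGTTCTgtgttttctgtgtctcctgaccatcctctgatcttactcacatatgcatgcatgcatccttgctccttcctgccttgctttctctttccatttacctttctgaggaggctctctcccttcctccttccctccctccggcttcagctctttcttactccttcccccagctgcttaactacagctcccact
Il5 held 2 NFAT core matches, at -113 and -47 counted from the start, and Il13 held 4, at -223, -201, -153 and -131. The AP-1 match of Plaur began at -69 and the hexamer of Sgk1 at -195. Plaur and Sgk1, which rose, also held an NFAT core each, at -202 and -105, not marked above. Of the windows examined but not printed, that of Il3 held an NFAT core at -234 and that of Il4 held none. Gpnmb held no AP-1 match but held a hexamer at -129 and NFAT cores at -219 and -96. Tsc22d3 held no hexamer but held an NFAT core at -199. Ramp3 held no AP-1 match, and Fkbp5 held no hexamer.

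Such matches describe letters only, and those of the NFAT core are frequent. Over the full RefSeq windows (250 bases before to 50 after the start), 8224 tested genes had a window. On either strand the NFAT core was found in 61.2% of the windows of genes that rose, 63.2% of those that fell, 59.7% of those not called and 61.3% of all 27025 windows. The AP-1 motif was found in 8.79%, 6.9%, 4.4% and 7.93% in the same order. The receptor hexamer was found in 16.6%, 10.6%, 12.4% and 19.0%. The full palindrome of the glucocorticoid response element, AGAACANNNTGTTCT, was found in none of the 8224 windows and in 1 of all 27025, so these windows do not hold these letters for Tsc22d3, Fkbp5 or Sgk1 either.

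Several T cell cytokine genes outside that region fell as well. Over 28 tested cytokine genes of T cells, Th2 cytokines included, 12 fell and 2 rose, against 4.2% and 3.88% of all genes (median log2 fold change -0.47), and with 1 library left out in turn 7 to 12 fell, the fewest without WT Ctrl replicate 3 or WT Dex replicate 3. Il2, the T cell growth factor, was 150.4, 88.0, 103 and 101 in the controls and 22.3, 23.6, 12.7 and 18.3 with Dex, 5.73-fold lower. Tnf, which encodes tumour necrosis factor, was 63.2, 52.3, 56.8 and 57.5 and 32.8, 40.8, 33.1 and 38.3, 1.58-fold lower (adjusted p = 0.000798). Il9, a cytokine made by Th9 cells, was 63.4, 12.0, 17.8 and 9.65 and 0, 0, 0.679 and 1.32. WT Ctrl 1 held far more Il9 than the other controls, and the other 3 controls still lay above every Dex library (adjusted p = 0.00522).

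Chemokine genes were uneven in the same way. Ccl22, a ligand of CCR4, was 32.5, 3.92, 3.96 and 4.93 without Dex and 0, 0.661, 0 and 2.86 with Dex (adjusted p = 0.0214), so its mean rested on WT Ctrl 1, and the call was lost without WT Ctrl replicate 1 or without WT Dex replicates 1, 2 or 3 in turn. Ccl3, an inflammatory chemokine, was 15.5, 48.8, 12.7 and 31.1 and 10.9, 6.39, 0 and 3.52 (adjusted p = 0.0455), and its call was lost without any of WT Ctrl replicates 2 and 4 or WT Dex replicates 2, 3 and 4. The cytokines that rose were Tgfb3 and Il23a. Il23a encodes the p19 subunit of IL-23, more often a product of myeloid cells, and it was 0.808, 0.588, 0.792 and 1.93 in the controls and 10.7, 6.17, 6.79 and 2.20 with Dex, low in both groups (log2 2.65 ± 0.43 SE, adjusted p = 0.00097). Pth, the parathyroid hormone gene, fell furthest of the named genes, from 26.0, 22.5, 26.7 and 31.3 in the controls to 0, 0.882, 0 and 0 with Dex.

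The Th17 identity genes that were called mostly rose. Of 20 tested Th17 identity genes 5 rose and 1 fell, against 3.88% and 4.2% of all genes (median log2 fold change 0.32). Among them Il6ra, the IL-6 receptor chain, rose from 4.16 ± 0.824 to 7.47 ± 1.31, the leukotriene receptor gene Ltb4r1 from 42.3 ± 7.20 to 72.3 ± 12.3, Tmem176a from 1.43 ± 0.663 to 5.05 ± 0.781 and Hif1a from 279 ± 11.1 to 336 ± 11.2. Batf, an AP-1 family factor needed for Th17 differentiation, was the gene that fell, from 279 ± 18.3 to 188 ± 16.1 (adjusted p = 0.000124).

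The signature cytokines were too uneven to call. Il17a was 129, 22.3, 32.5 and 32.6 in the controls and 121, 103, 24.0 and 16.1 with Dex, with WT Ctrl 1, WT Dex 1 and WT Dex 2 about 3 or more times as high as the others (log2 0.29 ± 0.59 SE, adjusted p = 0.823). Il17f was 152, 40.7, 42.0 and 38.8 and 261, 258, 87.0 and 96.2 and followed the same libraries (log2 1.36 ± 0.43 SE, adjusted p = 0.0599). Within the Dex group libraries 1 and 2, and within the controls library 1, were the high ones for both genes, so libraries of 1 treatment differed among themselves in these cytokines. Il17f passed the threshold under 7 alternatives, among them without WT Ctrl replicate 1 and without WT Dex replicate 3 or 4, where its log2 fold change kept its sign. Il23r was 7.27, 8.03, 6.14 and 5.79 and 12.4, 15.9, 5.89 and 8.59 (adjusted p = 0.15), and was called without WT Dex replicate 3. Il10, with 0, 2, 3 and 1 counts without and 3, 1, 7 and 6 with Dex, had too few to test. Ccr6 was 5.01 ± 4.80 without and 14.1 ± 11.3 with Dex (adjusted p = 0.106), and was called higher under 4 alternatives, among them without WT Ctrl replicate 1 and without WT Dex replicate 4.

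Some T helper 1 (Th1) genes were lower. Tbx21, the Th1 transcription factor T-bet, was 10.5, 28.4, 24.4 and 25.5 in the controls and 4.63, 8.82, 7.25 and 7.48 with Dex, 3.15-fold lower (adjusted p = 0.00373). The low control was WT Ctrl 1, the library with most Il17a, and it still exceeded every Dex library. Gzmb, granzyme B, was 347, 747, 657 and 691 and 174, 198, 333 and 340.3, 2.34-fold lower (adjusted p = 0.00284), with the same low control just above the highest Dex library. Of 14 tested Th1 genes 3 fell and none rose, against 4.2% and 3.88% of all genes, and with 1 library left out 2 to 5 fell, 5 without WT Ctrl replicate 1 and 2 without WT Ctrl replicate 2, 3 or 4 or WT Dex replicate 1. Ifng was 0, 4.51, 5.35 and 3.43 and 0, 1.54, 0 and 0, 0 in 4 of the 8 libraries, and was not called (adjusted p = 0.0659), but it was called lower under 4 alternatives, among them without WT Ctrl replicate 1, without WT Dex replicate 2 and without a filter on low counts. Tgtp2, an interferon-induced GTPase with a close copy (Tgtp1) that could share its reads, was 10.5, 27.6, 22.4 and 25.1 and 5.05, 8.60, 5.44 and 8.37 (adjusted p = 0.00141). Of 24 tested interferon-stimulated genes 5 rose and 2 fell, against 3.88% and 4.2% of all genes, and 1 fell without WT Dex replicate 3 and 3 without WT Ctrl replicate 1. Gbp2 rose from 71.5 ± 14.9 to 127 ± 20.3 and Gbp5 from 3.60 ± 0.636 to 8.23 ± 0.950, while Zbp1 fell from 17.6 ± 2.04 to 10.4 ± 0.755.

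Costimulation and follicular helper genes moved in both directions. Icos, a costimulatory receptor, was 61.2, 45.5, 55.0 and 49.8 in the controls and 145, 130.1, 117 and 119 with Dex, 2.42-fold higher (adjusted p = 9.75e-06), and Cd28 rose from 67.4 ± 6.04 to 102 ± 7.95 (adjusted p = 0.000622). Sh2d1a, the adaptor SAP, fell from 147 ± 5.98 to 96.8 ± 14.9 and Cd200 fell from 765 ± 85.2 to 527 ± 11.2. Among 14 tested co-inhibitory receptors and ligands 3 rose and 4 fell, against 3.88% and 4.2% of all genes (2 without WT Ctrl replicate 2, 3 or 4 or WT Dex replicate 3). Pdcd1lg2, the PD-1 ligand PD-L2, was 17.2, 17.0, 13.5 and 18.2 in the controls and 5.89, 6.39, 5.66 and 5.94 with Dex, 2.75-fold lower (adjusted p = 3.69e-05). Vsir, which encodes the inhibitory protein VISTA, rose from 38.2 ± 2.17 to 67.0 ± 4.51 (adjusted p = 0.00279), and Nt5e, the ectoenzyme CD73 that makes adenosine, rose from 0.606, 0.196, 0.792 and 0.858 to 2.10, 7.28, 4.08 and 4.40 (adjusted p = 0.00233). Among 16 tested regulatory T cell genes 3 rose and 3 fell, against the same shares (1 fell without any 1 of the 4 WT Ctrl libraries or WT Dex replicate 2 or 3), Nrp1 rising from 5.62 ± 1.93 to 11.8 ± 2.24. Foxp3 had 1 to 4 counts in 7 of the 8 libraries and 0 in the other, too few to test. Cd83, a surface glycoprotein of activated cells, was 22.0, 18.4, 22.6 and 22.1 and 3.58, 3.31, 5.44 and 10.1, 3.78-fold lower.

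Of 26 tested AP-1, EGR and NFAT factor genes 5 fell and 1 rose, against 4.2% and 3.88% of all genes, and 3 fell without WT Ctrl replicate 2 or WT Dex replicate 1 or 2. Egr2, a zinc finger factor that follows receptor stimulation, was 43.4, 45.5, 33.9 and 38.8 in the controls and 12.0, 17.6, 22.9 and 26.4 with Dex, 2.05-fold lower (adjusted p = 0.00356). Nr4a1, an immediate early nuclear receptor, fell from 67.9 ± 1.40 to 48.5 ± 8.27 (adjusted p = 0.0102), and the gene that rose was Batf3, from 156 ± 10.1 to 218 ± 25.2. Of 19 tested genes of MAP kinase phosphatases and RGS proteins 3 fell and 1 rose, and 2 rose without WT Ctrl replicate 3 or 4 or WT Dex replicate 2. The phosphatases Dusp4 and Dusp5, themselves induced by ERK activity, fell from 21.5 ± 2.09 to 11.8 ± 2.07 and from 18.2 ± 0.454 to 9.38 ± 1.3 (adjusted p = 0.000211 and 0.00012), and Rgs16 fell from 43.7 ± 3.32 to 24.2 ± 6.77. Spred2, an inhibitor of the RAS to ERK pathway, rose from 3.74 ± 0.582 to 9.69 ± 3.14 (adjusted p = 0.00488). Proximal signalling genes did not share a direction, with 7 of 32 higher (4 without WT Ctrl replicate 2) and 4 lower, against the same shares of all genes. Lcp2, the adaptor SLP-76, fell from 154 ± 4.44 to 101 ± 16.8, while Cblb, a ubiquitin ligase that restrains the receptor, rose from 21.8 ± 1.75 to 35.3 ± 6.37 and the phosphatase gene Ptpn22 rose from 87.4 ± 2.33 to 134 ± 28.0.

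NF-kB genes and cytokine signalling genes also split. Of 25 tested NF-kB subunits and inhibitors 2 rose and 4 fell, against 3.88% and 4.2% of all genes, and 19 were not called. Rel fell from 11.8 ± 0.481 to 6.78 ± 0.867 (adjusted p = 0.000646) and Nfkb2 from 74.0 ± 4.79 to 53 ± 1.39, and the inhibitor Tnfaip3 (A20) fell from 61.1 ± 9.31 to 41.7 ± 4.80, while Malt1 rose from 25.8 ± 1.71 to 44.1 ± 4.43 and Tnip2, an A20-binding inhibitor, rose from 70.2 ± 1.44 to 122 ± 10.9 (adjusted p = 4.6e-05). Nfkbia, which encodes the inhibitor IκBα that glucocorticoids can raise, was 452 ± 46.4 without and 387 ± 29.2 with Dex (adjusted p = 0.164). Of 28 tested cytokine receptor genes 4 rose and none fell, against the same shares of all genes, among them Il17ra, from 15.2 ± 2.12 to 25.2 ± 4.80 (adjusted p = 0.00475). Of 18 tested SOCS, JAK and STAT genes 3 rose (1 without WT Ctrl replicate 1 or WT Dex replicate 3) and 2 fell. Socs2, a feedback inhibitor of cytokine signalling, rose from 113 ± 11 to 163 ± 20.8, and Stat5a fell from 159 ± 10.6 to 117 ± 18.5.

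Genes of survival, homing and quiescence were among those called. Bcl2 was 80.8, 71.5, 80.6 and 77.9 in the controls and 121, 112, 127 and 125 with Dex, 1.56-fold higher, while Bcl2l1, which encodes Bcl-xL, was 135, 142, 138 and 129.5 and 79.1, 86.4, 80.2 and 72.2, 1.71-fold lower (adjusted p = 9.75e-06). Neither pair of groups overlapped, so 2 genes that protect from apoptosis moved in opposite directions. Bcl2l11, which encodes the death-promoting protein BIM, rose from 1.92 ± 0.355 to 4.85 ± 1.51 (adjusted p = 0.00501). Bcl2a1b and Bcl2a1d fell too, but they are near-identical copies and their counts can be split uncertainly. Of 20 tested chemokine and homing receptors 5 rose and 1 fell, against 3.88% and 4.2% of all genes: Gpr183 rose from 10.4 ± 3.07 to 25.8 ± 3.62 and Gpr18 from 42.1 ± 4.37 to 81.1 ± 8.55 (adjusted p = 0.00127 and 3.99e-05). Of 19 stem-like and naive T cell genes 5 rose and 1 fell, with Foxp1, a factor that keeps naive T cells quiescent, at 11.1, 10.8, 11.1 and 10.9 in the controls and 24.2, 21.2, 23.1 and 19.6 with Dex (adjusted p = 2.8e-05) and Lef1 rising from 84.7 ± 2.85 to 117 ± 6.12. Gsn, which encodes the actin-severing protein gelsolin, had one of the most even falls, from 205, 212, 227 and 257 to 69.9, 75.6, 76.5 and 84.3, 2.94-fold (adjusted p = 1.51e-06).

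Several lists of metabolic genes held more falls than rises, each of small size. Of 77 nuclear genes of oxidative phosphorylation 20 fell and none rose, against 4.2% and 3.88% of all genes (median log2 fold change -0.19 against 0.01), and 68 had a negative fold change. The number that fell was 8 to 18 when each library was left out in turn, lowest without WT Ctrl replicate 2. The list is abundant, with a sum of 23099 to 24439 scaled CPM in the controls. Of all 1059 genes at 100 scaled CPM or more, 139 fell and 69 rose, a nearer comparison than that with all genes. Uqcr10 fell from 375 ± 19.4 to 285 ± 12.4, Cox5a from 493 ± 22.3 to 392 ± 32.2 and Ndufb6 from 206 ± 10.2 to 156 ± 7.75, all subunits of the respiratory chain. None of the 13 mitochondrially encoded genes was called. Of 26 genes of serine, folate and amino acid metabolism 7 fell and none rose, against the same shares (median -0.26): Phgdh, the first enzyme of serine synthesis, was 219, 274, 258 and 244 in the controls and 174, 184, 167 and 151 with Dex, 1.47-fold lower (adjusted p = 0.000699), and Psat1, Asns and Slc3a2 fell 1.34-fold, 1.47-fold and 1.29-fold.

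Several protein folding genes fell. Of 14 tested heat shock genes 5 fell and none rose, against 4.2% and 3.88% of all genes (median -0.30), Hspe1 falling from 332 ± 39.5 to 252 ± 21.8 and Dnajb4 from 8.50 ± 1.07 to 4.78 ± 0.619, and 2 to 5 fell when each library was left out, fewest without WT Dex replicate 4. Of 27 tested genes of endoplasmic reticulum folding and stress 5 fell and 1 rose, against the same shares. The falls were led by Creld2, from 45.0 ± 4.58 to 25.6 ± 2.82, and Pdia6, from 133 ± 13.1 to 90.7 ± 9.30, while Xbp1, a factor of the unfolded protein response, rose from 193 ± 12.6 to 322 ± 55.7 (adjusted p = 0.00307). In the tricarboxylic acid cycle 4 of 23 genes fell, Suclg1 from 170.1 ± 17.3 to 118 ± 12.1 among them. Without WT Ctrl replicate 2 or WT Dex replicate 3 it was 2, nearer to the 4.2% of all genes. Pcx, pyruvate carboxylase, rose from 30.9 ± 2.61 to 54.1 ± 5.72 (adjusted p = 0.000646). The heat shock and tricarboxylic acid cycle lists are abundant, with sums of 5738 to 6278 and 2514 to 2686 scaled CPM in the controls. Of all 1059 genes at 100 scaled CPM or more, 139 fell and 69 rose, so the share of all genes is low for them. Erg28, of sterol synthesis, fell from 176, 164, 168 and 177 to 113, 111, 114 and 116, even within each group (adjusted p = 8.42e-06).

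Other programmes gave few or no calls. None of 25 tested glycolysis genes (median log2 fold change 0.04) and none of 36 mitosis genes (median -0.02) were called, and 1 of 40 DNA replication genes fell (median -0.18). Of 34 chromatin genes 2 fell, Dnmt3a, the de novo DNA methyltransferase, going from 35.5 ± 5.01 to 19.7 ± 4.6 (adjusted p = 0.00468). Of 17 integrin and adhesion genes 1 was called. Of 72 cytosolic ribosomal protein genes 3 rose, close to the 3.88% of all genes. The number was 1 without WT Ctrl replicate 2 and up to 7 with another library left out. Fold changes were small but positive for 67 of the 72, with a median of 0.12 on the log2 scale against 0.01 for all genes. Shares near the background are not a result about these lists, and a list without calls does not show that its genes did not change.

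**Figure D4:**
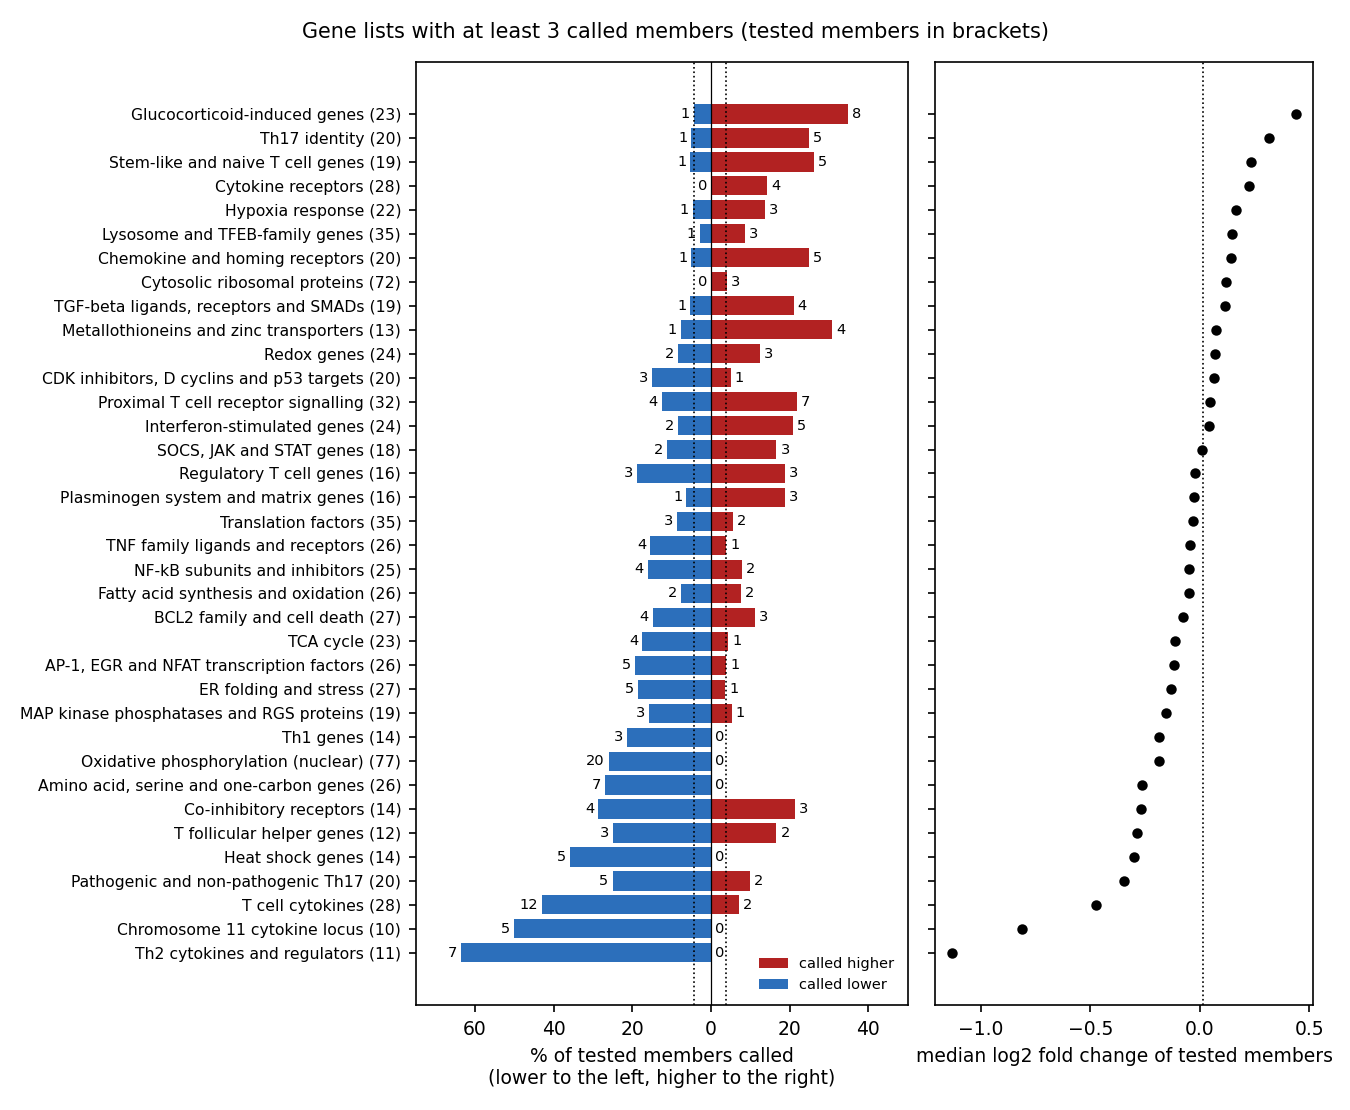
Share of tested members called higher (red, to the right) or lower (blue, to the left) with Dex for each gene list with at least 3 called members, with the counts printed at the bars (left panel), and the median log2 fold change of each list (right panel). Dotted lines mark 3.88% higher and 4.2% lower of all genes, and the median of all genes; the glucocorticoid-induced genes stand at the top with 8 higher and the Th2 list at the bottom with 7 lower.

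The WT response was set beside that of IL-23R KO cells, which was larger in count. In KO cells Dex changed 5911 of 10813 genes (54.7%), and the difference between the 2 responses was called for 3487 genes (32.2%). The KO Dex libraries stood apart, with 31.4 to 38.4% of repeat and ribosomal RNA counts and 0.359 to 0.447% of mitochondrial counts, against 1.46 to 2.26% in the WT Dex libraries, and the part of this in the difference was not tested beyond removal of the repeat features, after which 3476 genes were called, 3439 of them shared. WT and KO comparisons share no library. Of the 420 genes higher with Dex in WT cells, the KO fit called 321 higher and 18 lower and left 81 uncalled. Of the 454 that fell, 333 also fell, 34 rose and 87 were not called. Of the genes not called in WT cells, the KO fit called 2595 higher and 2610 lower and left 4734 uncalled. Among the 874 WT-called genes the responses were called different for 425.

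Several large WT changes were larger still in KO cells. Isg20 had a log2 fold change of 1.95 ± 0.27 SE in WT and 4.78 ± 0.26 in KO cells (difference 2.83 ± 0.39, adjusted p = 3.97e-05). Plaur and Tgfb3 rose by 5.25 and 4.62 in KO cells against 3.09 and 2.28 in WT (adjusted p of the difference 0.00271 and 0.000179). The falls of Il5 and Il13 were greater by -4.36 and -5.36 on the log2 scale (adjusted p = 0.00542 and 0.000284), where the KO values rest on few or no counts with Dex. Ndrg1 rose by 0.64 in WT and 3.03 in KO cells (adjusted p of the difference 8.46e-07), though the WT call was lost without WT Ctrl replicate 2, and Mxd1, a MYC antagonist, by 0.79 and 2.69. Slc17a6, Tnip3 and Lad1 fell further in KO cells, with log2 fold changes of -0.95, -0.77 and -2.46 in WT and -4.23, -3.83 and -3.75 in KO cells. The WT call of Slc17a6 was lost without WT Dex replicate 3 or 4.

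Some genes turned direction between the genotypes. Gadd45b fell in WT (-1.17 ± 0.25) and rose in KO cells (1.22 ± 0.22, adjusted p of the difference 4.15e-05). Tnf fell in WT (-0.66 ± 0.11) and rose in KO cells (0.66 ± 0.10, adjusted p of the difference 6.91e-06). Ly6e rose in WT (0.59 ± 0.06) and fell in KO cells (-0.21 ± 0.06, adjusted p of the difference 2.54e-06). Sv2c rose in WT cells and had a log2 fold change of -0.57 ± 0.27 in KO cells that was not called (adjusted p of the difference 2.93e-05). For others the difference was not called: Neb was 2.79 ± 0.14 in WT and 3.33 ± 0.14 in KO cells, Sgk1 1.65 and 1.86, Gsn -1.56 and -1.31, and Elovl6 0.93 and 0.95 (adjusted p of the difference = 0.0543, 0.604, 0.307 and 0.929).

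**Figure D5:**
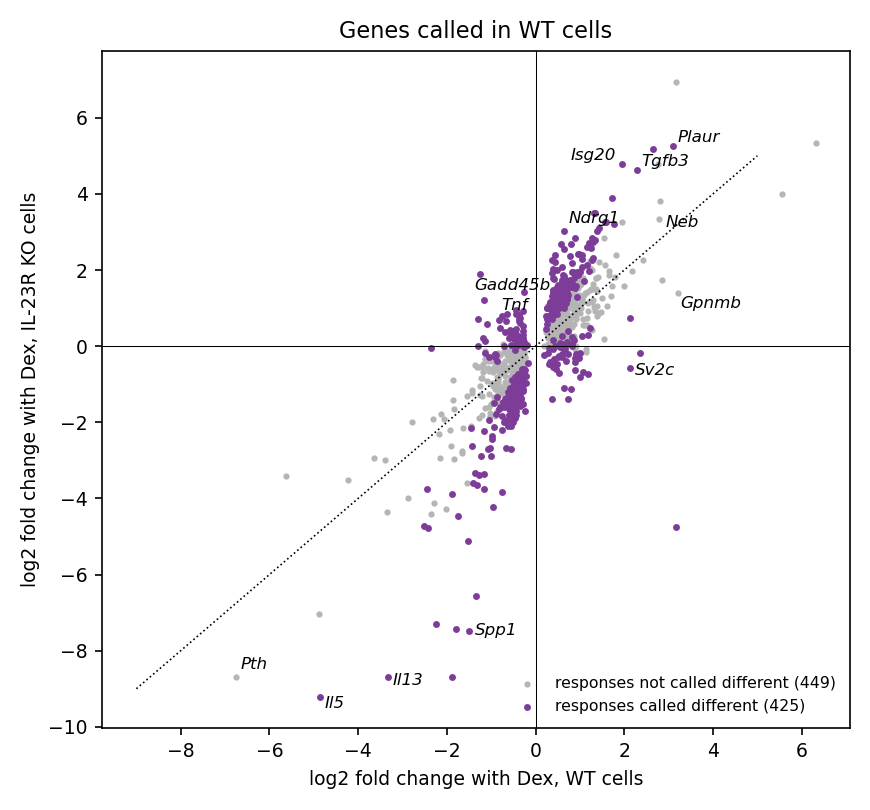
Fitted log2 fold change with Dex in IL-23R KO cells (vertical axis) against that in WT cells (horizontal axis) for the 874 genes called in WT cells, with the dotted line at equal response. Purple points are the 425 genes whose responses were called different, and Gadd45b and Tnf lie in the quadrant of a fall in WT and a rise in KO cells.

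In the separate CNS table, GR cKO cells were compared with GR WT cells. There edgeR called 0 of 11148 genes (0%), with 1226 at an unadjusted p under 0.05 and 122 called by DESeq2. Of the WT Dex genes, 388 that rose and 415 that fell were tested there. The deleted gene, Nr3c1, was 14.1 scaled CPM in GR WT and 5.74 in GR cKO cells on average (log2 -1.3 ± 0.16 SE, adjusted p = 0.113), and Tsc22d3 was 139 and 65.3 (log2 -1.09 ± 0.17 SE, adjusted p = 0.153). Fkbp5 and Sgk1 had log2 fold changes of 0.09 ± 0.28 and 0.71 ± 0.40 SE.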

How the data were processed

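Full-length cDNA libraries (modified SMART-Seq2, 2000 sorted cells, 12 amplification cycles, per the labels' protocols) were counted by the authors with RSEM 1.3.3 on mm10, per the submitters' processing notes, and deposited in the form of estimated counts, which were whole numbers here. The aligner and annotation are not given in the sources used here, and 0 columns lacked a sample. Groups came from the labels. Counts of the 16 in vitro libraries were fitted together in edgeR 4.0.16 (R 4.3.3; TMM, filterByExpr with minimum count 10 and total 15, quasi-likelihood F test, two-sided, Benjamini-Hochberg adjusted p under 0.05), with contrasts for Dex in each genotype and for their difference. The CNS table was fitted separately. Genes were named by a rule: fixed glucocorticoid and cytokine genes, the 15 largest non-overlapping changes per direction at 10 or more scaled CPM in the higher group, the 10 smallest adjusted p per direction, the 8 largest differences between genotypes per direction, and members of described lists. Not every gene the rule allows is printed, and some are not reported here. Members and lists were chosen with earlier results of these data known. Gene positions are from the mm10 annotation, and figures were drawn in matplotlib 3.10.9. Alternatives were DESeq2 1.42.0, its size factors, no filter, a mean of at least 10 CPM, repeat and ribosomal RNA features removed, only the 8 WT libraries, a replicate block and each library left out. With no stated strandedness, overlapping genes on opposite strands cannot be told apart.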

Additional observations from a re-analysis of the deposited data

Results flagged for a closer look

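Among 138 named and tested genes, the 4 libraries of each WT group were searched for a library far from the others, by the gap to its nearest neighbour over the range of the group. Of 276 groups 13 held one, close to the about 1 in 20 groups that chance flags, so the count is not a result. That rate may not hold where most values of a group are 0. WT Ctrl 1 stood far above the other controls for Il17a (129 scaled CPM against 22.3 to 32.6), Il17f (152 scaled CPM against 38.8 to 42.0), Il9 (63.4 scaled CPM against 9.65 to 17.8), Ccl22 (32.5 scaled CPM against 3.92 to 4.93), Ccr6 (12.1 scaled CPM against 1.57 to 3.37). Il5 was 63.5 in WT Ctrl 4 against 38.0 to 40.7 in the others. Il23a was 1.93 in WT Ctrl 4 against 0.588 to 0.808 in the others. Pth was 0.882 in WT Dex 2 and 0 in the other libraries of the group. Ifng was 1.54 in WT Dex 2 and 0 in the other libraries of the group. Cd83 was 18.4 in WT Ctrl 2 against 22.0 to 22.6 in the others. Gpr18 was 35.6 in WT Ctrl 4 against 43.6 to 44.9 in the others. Uqcr10 was 266 in WT Dex 1 against 289.5 to 292 in the others. Ndrg1 was 140.2 in WT Dex 2 against 178 to 179.6 in the others.

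For 77 of these genes the response to Dex differed between WT and IL-23R KO cells (edgeR interaction term, adjusted p under 0.05). Over all genes tested the difference was called for 3487 of 10813 (32.2%). Genes were named partly for the size of this difference or of the WT change, so the shares cannot be compared directly. Each value below is the KO minus the WT log2 fold change. Called higher in both genotypes, and with a larger rise in KO cells, were Tsc22d3 (1.68), Txnip (1.56), Pik3ip1 (1.45), Mt1 (1.77), Slc39a8 (0.69), Plaur (2.16), Tgfb3 (2.35), Isg20 (2.83) and Ramp3 (1.46). The same held for Ecm1 (1.66), Fth1 (1.45), Fkbp1a (0.36), Il23a (2.54), Icos (1.00), Cd28 (0.61), Vsir (1.13), Cblb (0.56) and Malt1 (0.95). So were Bcl2 (0.88), Bcl2l11 (2.17), Gpr18 (1.01), Foxp1 (0.94), Ndrg1 (2.39), Mxd1 (1.90), Tnfrsf26 (1.58) and Adam9 (0.73). Called lower in both, and with a larger fall in KO cells, were Il5 (-4.36), Il13 (-5.36), Gata3 (-1.17), Ccr8 (-0.83), Il3 (-2.35), Il2 (-2.20), Batf (-0.71), Sh2d1a (-1.03) and Cd200 (-0.87). The same held for Pdcd1lg2 (-0.68), Lcp2 (-0.58), Uqcr10 (-0.39), Cox5a (-0.79), Ndufb6 (-0.57), Phgdh (-2.14), Psat1 (-0.81), Asns (-1.55) and Slc3a2 (-0.61). So were Hspe1 (-0.99), Pdia6 (-0.59), Suclg1 (-0.36), Erg28 (-1.22), Slc17a6 (-3.28), Tnip3 (-3.07), Lad1 (-1.29), Txn1 (-0.92) and Tnfrsf4 (-0.68). Called in the same direction in both, with a smaller change in KO cells, was Ahcy (-0.34). Called in opposite directions were Batf3 (-0.94), Gadd45b (2.39), Ly6e (-0.80), Tnf (1.32), Nrp1 (-1.76), Tnfaip3 (0.86), Bcl2a1b (1.04) and Dnajb4 (1.52). Called in WT but not in KO cells were Fkbp5 (-0.78), Jaml (-1.39), Sv2c (-2.70), Gbp2 (-0.83), Socs2 (-0.80) and Stat5a (0.48). Not called in WT cells, but with a called difference, were Nr3c1 (1.36), Cd4 (-0.41), Per1 (1.69), Dusp1 (1.81), Il7r (0.94), P4ha2 (1.42), Il23r (-1.67), Ccr6 (-2.45) and Nfkbia (0.68). The KO Dex libraries held 31.4 to 38.4% of repeat and ribosomal RNA counts, against 22.0 to 26.2% in WT Dex, and the part of this in the differences was not tested beyond removal of those features, after which 3476 of the genes tested were called different, 3439 of them also called before removal.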

How the results depend on the processing

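The 874 genes called with Dex in WT cells became 913 with DESeq2, 895 with its size factors, 701 of 22697 genes without a filter, 818 of 6490 at a mean of at least 10 CPM and 891 with only the 8 WT libraries, and 354 were called under every alternative. Leaving out 1 library at a time gave 531 to 829 calls, 256 to 412 of them higher and 275 to 417 lower. The fewest came without WT Ctrl replicate 2, and 571 without WT Dex replicate 3 (288 lower). These fits hold fewer samples. The difference between genotypes was called for 2818 genes at a mean of at least 10 CPM, 2608 of them among the 3487, and for up to 3643 with another setting, the most without KO Ctrl replicate 7 (3265 shared). For GR cKO against GR WT the count of 0 became 122 with DESeq2, 4 without a filter and 0 to 2 with 1 library left out, and the cause was not tested.

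Of 237 gene results examined, 146 kept their direction and side of the threshold under every alternative. Per1 was not called and changed sign, to 0.0132 at a mean of at least 10 CPM, and ranged from -0.0929 to 0.108 with 1 library left out. Il17a, also not called, ranged from -0.18 without WT Dex replicate 1 to 1.19 without WT Ctrl replicate 1.

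With the replicate number as a block the fit of 16 libraries called 810 genes (385 higher, 425 lower) and the fit of 8 called 984 (462 higher, 522 lower), and the difference between genotypes 3345. Il17f and Ccr6 passed the threshold in both of these fits and Ifng in that of 16 libraries. Same-numbered WT libraries deviated from their group means with correlations of 0.0467, 0.0328, -0.0292 and 0.0432, all below 0.1. In the main fit they were taken to share only a number, though values this small cannot settle whether they are pairs. WT Ctrl replicates 1, 2 and 4 each correlated best with the WT Dex library of their own number. WT Ctrl replicate 3 correlated better with WT Dex replicates 4 and 1 than with its own number.

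Depth limits the low genes: 3 counts are 0.588 to 0.679 scaled CPM, and Csf2, Il10 and Foxp3 could not be tested.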

Other observations

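Some lists of the text were described only in part. Of 24 tested redox genes 3 rose and 2 fell (edgeR, adjusted p under 0.05), against 3.88% and 4.2% of all genes, and 1 fell without any 1 library other than WT Dex replicate 1. Nfe2l2, which encodes the oxidative stress factor NRF2, was 14.7, 12.9, 10.9 and 12.2 in the controls and 18.1, 24.0, 18.8 and 19.8 with Dex, 1.59-fold higher (adjusted p = 0.00286), while thioredoxin, Txn1, fell from 417 ± 32.8 to 316 ± 21.5 (adjusted p = 0.00937).

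Among TNF family genes 4 of 26 fell (2 without WT Ctrl replicate 3 or WT Dex replicate 3) and 1 rose, against the same shares of all genes. Tnfrsf26, a TNF receptor family gene, was 18.0, 17.2, 18.2 and 17.4 in the controls and 30.1, 27.8, 30.8 and 33.2 with Dex. Tnfrsf4, the costimulatory receptor OX40, was 926, 941, 1033 and 997 and 781, 749.9, 820.0 and 833, a small but even fall (adjusted p = 0.00802). Adam9, a membrane protease gene, rose from 5.96 ± 0.505 to 10.8 ± 1.05 (adjusted p = 0.00294).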
